A study of Rattus norvegicus with 96 samples.

Results

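The transcripts described here encode 10 chaperones and co-chaperones of the HSP70 and HSP90 systems and of the mitochondrial chaperonin: Chordc1, Stip1, Dnaja1, Dnajb1, Hspa8, Hsp90ab1, Hsph1, Ahsa1, Hspd1 and Hspe1. They were chosen by their differences at week 2 after exposure, when 3 of them, Chordc1, Stip1 and Dnaja1, were lower in silica than in air rats, so that comparison is given below as a description with no test. Rows of the array table were matched by gene symbol or Entrez ID. Of the 10 genes, 9 had at least 1 row and 7 passed the filter on detection, among 12306 genes that passed it in all. The row kept for Hsp90ab1 was detected on only 6 of 96 arrays, and results therefore rest on 6 transcripts: Chordc1, Stip1, Dnaja1, Dnajb1 and Hspe1, detected on all 96 arrays, and Hspd1, detected on 95.

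The study measured RNA of whole blood, depleted of globin mRNA, from 96 male rats of the strain labelled CDF Fisher 344, aged 3 months in the labels, on Illumina BeadChips, a separate array for every animal. The animals breathed crystalline silica, a dust whose long inhalation scars the lung, or air alone for 6 hours a day on 5 days. At 15 mg/m3, 8 silica and 4 air rats were killed at each of weeks 0, 1, 2, 4, 8 and 16 after exposure. The sets at 1 mg/m3 and 2 mg/m3 each had 8 silica rats with 4 air rats of their own, killed 16 hours after exposure ended and given as week 0. The labels name no other treatment or allele, and all rats carried the same strain label. Values are log2 intensities after background correction and quantile normalization, and a difference is silica minus air on that scale, so that 1 unit is a doubling. Errors of differences are standard errors (SE) of a limma fit to all arrays, and those of group means are SDs. A gene was called when its p, adjusted over the 12306 genes by the Benjamini-Hochberg method, was under 0.05.

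HSP70 proteins bind exposed hydrophobic stretches of other proteins in a cycle driven by ATP, which J-domain proteins start and nucleotide exchange factors reset. HSP90 takes over clients such as kinases and steroid receptors from HSP70 with the help of adaptors and of co-chaperones that set the pace of its own ATP cycle. Most of these genes carry binding sites for heat shock factor 1, the factor that switches them on when unfolded proteins accumulate, as in heat or oxidative stress. In leukocytes HSP70 and HSP90 support receptor signalling and rapid protein synthesis.

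Because heat shock factor is the textbook regulator of the family, promoter stretches that hold its recognition letters are shown for the members with the largest differences. The sequences are RefSeq's on build GRCr8, and all 10 genes matched a window of 300 bases, from 250 before to 50 after the start site that RefSeq's table of promoters uses, which for some of them, Chordc1 and Hspd1 included, lies inside the annotated gene. Capitals mark the 2 forms of the site searched, GAANNTTC and TTCNNGAA, each of which reads the same on both strands and which may overlap. The Chordc1 stretch (chr8:23650824-23650853, plus strand, after the start site) holds 4 overlapping matches. Those of Stip1 (chr1:213657625-213657714, minus strand) and Dnaja1 (chr5:60638344-60638433, plus strand), and the one of Dnajb1 (chr19:41431112-41431201, minus strand), end 30 bases into the transcript. The last stretch (chr9:64084227-64084326, plus strand) ends at the base before the Hspe1 start site and lies between the start sites used for the Hspe1 and Hspd1 windows, 290 bases apart on opposite strands; the annotated Hspd1 gene reaches further and covers this stretch too.
Chordc1: gcaaccgGAACGTTCGGGAAGATTCCTGAA
Stip1: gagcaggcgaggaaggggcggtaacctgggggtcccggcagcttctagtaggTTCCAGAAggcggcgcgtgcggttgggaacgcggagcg
Dnaja1: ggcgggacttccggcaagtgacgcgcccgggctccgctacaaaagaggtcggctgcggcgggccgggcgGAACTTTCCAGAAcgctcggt
Dnajb1: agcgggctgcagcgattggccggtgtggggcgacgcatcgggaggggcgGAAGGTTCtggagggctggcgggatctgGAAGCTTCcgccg
Hspe1 and Hspd1: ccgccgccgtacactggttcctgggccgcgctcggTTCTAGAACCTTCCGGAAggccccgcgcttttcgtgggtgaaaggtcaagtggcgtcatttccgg

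At least 1 match was present in the windows of 8 of the 10 genes, all but Hsp90ab1 and Ahsa1, and in 15.9% of 33469 promoter windows of the same length. Longer runs, in which the 2 forms overlap by 3 bases so that GAA and TTC units alternate 3 times, were present in 6 of the 10 genes (Chordc1, Dnaja1, Hspa8, Hsph1, Hspd1 and Hspe1), against 0.798% of all windows. The windows of Hspd1 and Hspe1 share 211 bases and the same match, so these 2 genes are not separate instances. Stip1 and Dnajb1, with 1 and 2 short matches, held no such longer run. A match describes letters in a window and not binding, and no match says only that these letters are not in it.

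The 6 detected members gave clear signals. Dnajb1 and Dnaja1, the J-domain proteins that deliver substrates to HSP70 and start its ATP hydrolysis, had median intensities of 1110 and 951 over the 96 arrays, above 95.3% and 94.6% of the rows of an array at the median. Hspd1, the ring-forming chaperonin of mitochondria, had a median of 552 and Chordc1, an HSP90 co-chaperone, one of 523. Hspe1, the lid of the mitochondrial chaperonin, and Stip1, the adaptor that holds HSP70 and HSP90 together, had medians of 267 and 263. Intensities of different probes do not rank transcripts by abundance. Hsp90ab1, the constitutive cytosolic HSP90, lay near background at a median of 76.7, and no fold is given for it. The 2 rows of Hsph1, a nucleotide exchange factor of HSP70, and the row of Ahsa1, the activator of HSP90's ATPase, were not detected on any of the 96 arrays, and no row matched Hspa8, which is not analysed here. The median standard error over beads lay between 2.57% and 3.84% of the intensity for the 6 detected members.

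Arrays detected 7642 to 9970 of 21792 rows, with a median of 9237.5. The labels name no chip, and blocks of 12 adjacent table columns, called column runs here, were used in its place. In the 15 mg/m3 set every air rat and 4 of the 8 silica rats of each week lie in the first 4 runs, and the remaining silica rats lie in the other 4 with the lower concentrations. Neutrophil markers were higher in silica rats: of 8, the median difference was above 0 in each of the 8 comparisons, and 7 were called at week 16, 4 at week 1 and 3 at week 8. In whole blood, fewer cells of a type and less RNA per cell cannot be told apart.

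At week 2, the comparison that chose the members, Chordc1, Stip1 and Dnaja1 stood lower in silica rats, at 0.7 times the air level for Chordc1, 0.728 times for Stip1 and 0.768 times for Dnaja1. Chordc1 lay between 8.66 and 9.07 in the 8 silica rats, with a median of 8.86, and at 9.08, 9.51, 9.61 and 9.20 in the 4 air rats. No silica rat reached the lowest air rat, and 1.05% of all genes had groups that did not overlap at week 2. The difference was -0.51 ± 0.10 (SE).

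Stip1 ranged from 7.40 to 7.91 in silica rats, with a median of 7.56, against 7.54, 8.14, 8.38 and 8.07 in air rats, a difference of -0.46 ± 0.10. One air rat lay among the silica rats and the other 3 lay above them all. Dnaja1 ranged from 9.82 to 10.28 in silica rats, with a median of 9.99, against 10.40, 10.51, 10.35 and 10.26 in air rats, a difference of -0.38 ± 0.08. A single silica rat, at 10.28, exceeded the lowest air rat.

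The other members lay lower by less. Hspd1 differed by -0.15 ± 0.08, Hspe1 by -0.14 ± 0.09 and Dnajb1 by -0.12 ± 0.07, each with overlapping groups. The median over the 7 members that passed the filter was -0.15, and that over all genes was 0.002. Without Hsp90ab1, which lay near background, the members' median was -0.27, and with arrays scaled to a common median it was -0.06. At the limit by which they were chosen, the adjusted p was 0.0453 for Dnaja1, just inside, and 0.557 for Hspd1, the next member outside. Of all genes 0.0325% were inside that limit at week 2, and nothing is read from these values. Within each of the first 4 column runs, with 1 silica and 1 air rat each, the silica rat was lower in 4 of 4 runs for Chordc1, Dnaja1 and Hspd1 and in 3 of 4 for Stip1 and Hspe1. For Dnajb1 the silica rat was lower in 2 of 4 runs and higher in 2. These runs hold arrays of the comparison that chose the members, so the counts are a description and no separate support. Stip1 stood at -0.25 with the stock form of the background correction, and Stip1 also ranged from -0.62 to -0.34 when each rat was left out in turn, the widest such range of the 3.

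Because the members were chosen by lower values in silica rats at week 2, a high air mean there is in part built in. The ranks and steps given here are therefore a description, and the share of all genes with such a rank was not counted. The air rats of week 2 had the highest mean of all 16 groups for 5 of the 6 detected members. It was highest for Chordc1 (9.35 ± 0.25), Stip1 (8.03 ± 0.35), Dnaja1 (10.38 ± 0.11), Dnajb1 (10.24 ± 0.23) and Hspe1 (8.08 ± 0.16; SD, n = 4 each), and ranked 3rd for Hspd1 (9.12 ± 0.08). The silica rats of that week ranked 12th of 16 for Chordc1 (8.83 ± 0.14), 9th for Stip1 (7.58 ± 0.17), 3rd for Dnaja1 (10.00 ± 0.13) and Dnajb1 (10.12 ± 0.09) and 2nd for Hspe1 (7.94 ± 0.12; SD, n = 8 each). In the order of the 16 group means, the step from the air rats of week 2 to the next group was 0.27 for Chordc1 and 0.37 for Dnaja1, against pooled SDs within groups of 0.17 and 0.13. No other 2 neighbours in the order differed by more than the pooled SD for either gene. For Stip1 the step was 0.16, about the pooled SD of 0.16, for Hspe1 the step, 8.08 against 7.94, was about the pooled SD of 0.14, and for Dnajb1 the step, 10.24 against 10.16, was within the pooled SD of 0.11. Without the air rats of week 2, group means spanned 0.47 for Chordc1, 0.40 for Stip1 and 0.50 for Dnaja1. The arrays of the week 2 rats detected a median of 9218.5 rows in silica rats and 8821.5 in air rats. With the number of detected rows as a covariate, the differences were -0.56 for Chordc1, -0.50 for Stip1 and -0.40 for Dnaja1. The summed intensity of the 8 neutrophil markers had a median of 10400 in silica rats (8990 to 13800) and 10000 in air rats (8960 to 11400), and 0 of them was called by limma at week 2, with 0 at an unadjusted p under 0.05. The 2 cold-inducible RNA-binding protein genes, Rbm3 and Cirbp, which are known to rise when cells cool, stood at 0.20 ± 0.12 and 0.23 ± 0.15 at week 2, and limma's adjusted p was 0.645 and 0.670. Their part and that of the blood cell markers in the chaperone differences were not tested.

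**Figure D1:**
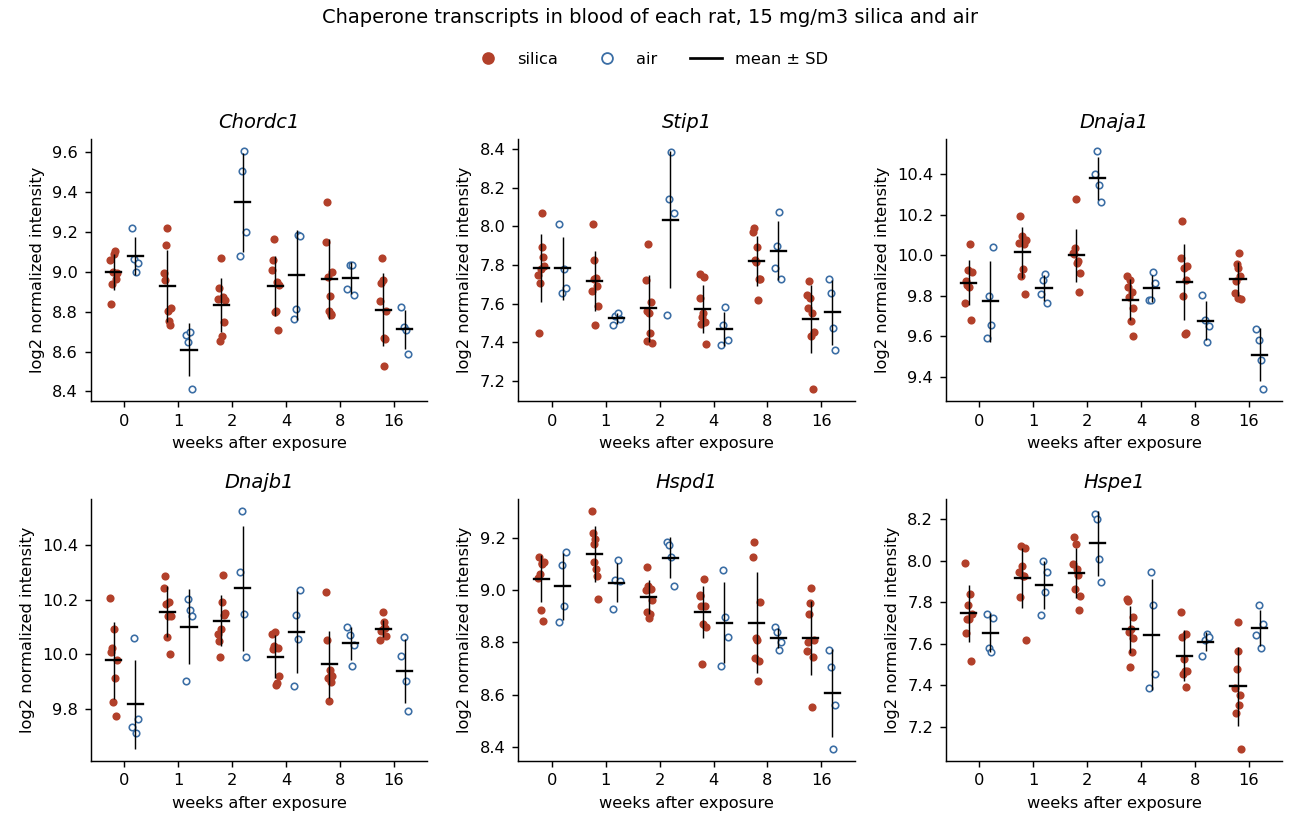
Normalized log2 intensity (vertical axes) of 6 chaperone transcripts in each rat of the 15 mg/m3 set by weeks after exposure (horizontal axes), with silica rats as filled points left of air rats as open points, and black bars for the mean and SD. The air rats of week 2 have the highest means for Chordc1 (9.35), Stip1 (8.03) and Dnaja1 (10.38), and at week 16 the silica rats lie above the air rats for Dnaja1 and mostly below them for Hspe1.

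At week 16, the last time point, Dnaja1 was higher and Hspe1 lower in silica than in air rats. The other members did not pass the test. Dnaja1 lay between 9.78 and 10.01 in the 8 silica rats, with a median of 9.89, and at 9.63, 9.58, 9.49 and 9.34 in the 4 air rats. All 8 silica rats lay above all air rats, a separation seen in 2.48% of all genes at week 16. The difference was 0.37 ± 0.08 (1.3-fold, limma adjusted p = 0.00236). The air mean at week 16, 9.51 ± 0.13 (SD, n = 4), was the lowest of all 16 groups for Dnaja1. The silica mean, 9.88 ± 0.08 (SD, n = 8), ranked 4th, and that of silica rats at week 0 was 9.87. The silica rat was the higher one in 4 of 4 column runs, by 0.23 to 0.45.

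Hspe1 ranged from 7.09 to 7.70 in silica rats, with a median of 7.37, against 7.64, 7.79, 7.58 and 7.70 in air rats. Of the 8 silica rats 7 lay below every air rat, and the remaining one, at 7.70, lay within the air range. Hspe1 fell by 0.28 ± 0.09 on the log2 scale (limma adjusted p = 0.0371), with the silica rat lower in 3 of 4 column runs. This call was lost in 7 of the 12 fits that each left out 1 rat, with the highest adjusted p at 0.135 without air rat 2. It was also lost within the first 4 column runs (-0.24, adjusted p = 0.246) and with arrays scaled to a common median in place of quantile normalization (-0.03, adjusted p = 0.965), under which the median of all genes shifted by 0.11. Dnaja1 kept its direction in each of the 12 such fits and stayed called (0.32 to 0.42), and with median scaling it stood at 0.70 (adjusted p = 0.0828).

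The intensities before normalization ran otherwise for Hspe1. They lay between 193 and 254 in silica rats, with a median of 213, and between 190 and 221 in air rats, with a median of 197, so the lower Hspe1 level of silica rats is one relative to the other transcripts of the same arrays. Those arrays differed in brightness at week 16, since the 90th percentile of an array's intensities had a median of 445 in silica rats (310 to 618) and 329 in air rats (313 to 396). Dnaja1 intensities before normalization lay between 610 and 1270 in silica rats and between 466 and 745 in air rats. The part of the array brightness in the 2 calls was not tested apart from the scalings given here.

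These were 2 calls among 7 members, where 4.78% of all genes were called at week 16, 3.08% as higher and 1.7% as lower. By unadjusted p under 0.05 the count was 4 members, against 18.3% of genes. Hspd1 lay between 8.55 and 9.01 in silica rats, with a median of 8.81, and at 8.77, 8.70, 8.39 and 8.56 in air rats. Its difference of 0.21 ± 0.08 missed the threshold (adjusted p = 0.0967), and 7 of 8 silica rats lay above the air mean. That air mean, 8.61 ± 0.17 (SD, n = 4), was the lowest of all 16 groups for Hspd1. Dnajb1 lay between 10.05 and 10.15 in silica rats, with a median of 10.09, and at 9.99, 10.06, 9.90 and 9.79 in air rats. The silica rats of week 16 had the smallest spread of any group for Dnajb1 (SD 0.03, n = 8), and all 8 exceeded the air mean, while the difference of 0.16 ± 0.07 did not pass (adjusted p = 0.217). Chordc1 stood at 0.10 ± 0.10 (adjusted p = 0.669) and Stip1 at -0.03 ± 0.10 (adjusted p = 0.907), with 95% intervals of -0.10 to 0.30 for Chordc1 and -0.23 to 0.16 for Stip1.

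In the fit to all arrays, week 16 was also the comparison with the most genes called, 588, although with only the arrays compared the count was 62 at week 16 and 90 at week 8. The summed intensity of the 8 neutrophil markers had a median of 13100 in silica rats (11700 to 20600) and 8340 in air rats (6830 to 10100), so that the groups did not overlap, and 7 of the 8 markers were called higher. All 8 were detected on at least 31 arrays. Within groups, over all 96 arrays, the mean of the members correlated with the mean of those markers at r = -0.04. That mean is over all 7 tested members, so it cannot show how Dnaja1 or Hspe1 alone followed the markers. Arrays detected a median of 9252.5 rows in silica rats and 8790 in air rats at week 16. With that number as a covariate, Dnaja1 stood at 0.36 (adjusted p = 0.00477) and Hspe1 at -0.29 (adjusted p = 0.0407). The part of the neutrophil markers in these 2 differences was not tested.

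Hspd1 and Hspe1 form one folding machine in the mitochondrial matrix and share a promoter region, yet they stood on opposite sides of 0 at week 16. The pair was looked at after these values were seen. The difference between the probes, Hspe1 minus Hspd1 within the same array, was -1.38, -1.54, -1.43, -1.39, -1.30, -1.25, -1.39 and -1.71 in silica rats 1 to 8, and -1.13, -0.92, -0.81 and -0.87 in air rats 1 to 4. All 8 silica rats lay below all 4 air rats. The means were -1.42 ± 0.14 in silica rats and -0.93 ± 0.14 in air rats (SD, n = 8 and n = 4), and the difference was -0.49. No test is given, since the pair was formed from these same arrays. In the other 6 comparisons outside week 2 the difference lay between -0.13 and 0.06. The air rats of week 16 had the highest mean of all 16 groups for this pair. The difference was -0.56 to -0.45 with each rat left out. It was smallest, at -0.31, with the stock background correction, and it was -0.35 with the authors' deposited values. With median scaling it was -0.53, and within the first 4 column runs it was -0.40. How many other pairs of probes separate in this way was not counted.

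**Figure D2:**
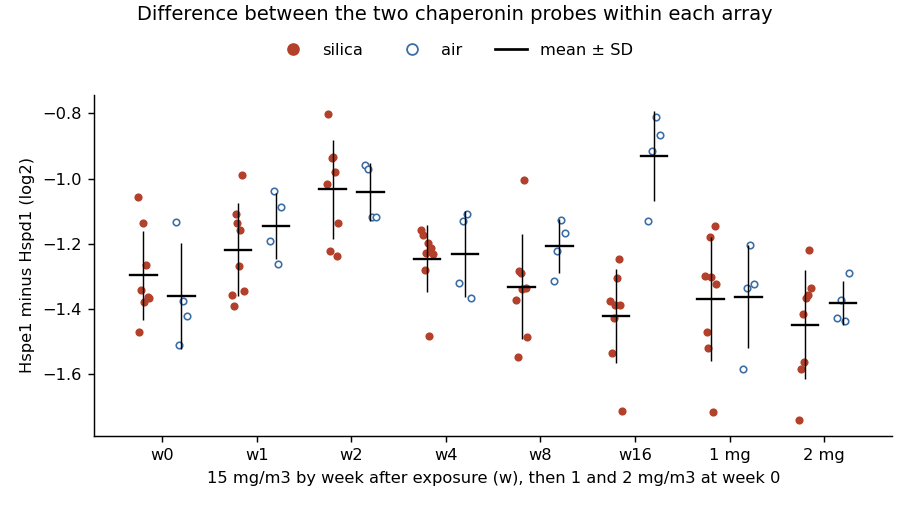
Hspe1 minus Hspd1 within each array in log2 units (vertical axis), for the 15 mg/m3 set by week and then the 1 and 2 mg/m3 sets at week 0 (horizontal axis), with silica rats as filled points left of air rats as open points and black bars for the mean and SD. The groups separate at week 16, with means of -1.42 in silica rats and -0.93 in air rats, and overlap in the other comparisons.

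Weeks 0, 1, 4 and 8 gave no called member, against 0.0163%, 0.39%, 0.122% and 0.268% of all genes called. Beside these counts of 0 by limma, the members with an unadjusted p under 0.05 numbered 1, 2, 0 and 1, where 9.08%, 11.2%, 9.39% and 9.24% of all genes had one. The nearest to a call was Chordc1 at week 1, where it lay between 8.74 and 9.22 in silica rats, with a median of 8.89, and at 8.68, 8.65, 8.70 and 8.41 in air rats. The groups did not overlap, as in 1.18% of genes at week 1, and 8 of 8 silica rats were higher. Its difference of 0.32 ± 0.10 did not pass (adjusted p = 0.150). The air mean of week 1, 8.61 ± 0.13, was the lowest of all 16 groups for Chordc1. The next lowest was 8.71, against a pooled SD within groups of 0.17. How many genes have such a rank was not counted. Dnaja1 at week 1 stood at 0.17 ± 0.08 (adjusted p = 0.406) and Stip1 at 0.19 ± 0.10 (adjusted p = 0.454).

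At week 0, right after the exposure, Dnajb1 had the lowest p of the members, with 9.77 to 10.21 in silica rats, a median of 9.99, and 9.73, 10.06, 9.71 and 9.76 in air rats. The difference was 0.16 ± 0.07 (adjusted p = 0.468), and one air rat, at 10.06, lay among the higher silica rats. Hspe1 at week 0 stood at 0.09 ± 0.09 (adjusted p = 0.837) and Dnaja1 at 0.09 ± 0.08 (adjusted p = 0.826). At week 4 the lowest p belonged to Dnajb1 (-0.09 ± 0.07, adjusted p = 0.806) and Stip1 (0.11 ± 0.10, adjusted p = 0.835). Week 8 brought Dnaja1 to 0.19 ± 0.08 (adjusted p = 0.411), with 9.61 to 10.17 in silica rats, a median of 9.91, and 9.80, 9.68, 9.57 and 9.65 in air rats, while Dnajb1 stood at -0.08 ± 0.07 (adjusted p = 0.802). The groups overlapped at week 8 for Dnaja1, whose silica rats spread more widely (SD 0.19) than its air rats (SD 0.10).

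**Figure D3:**
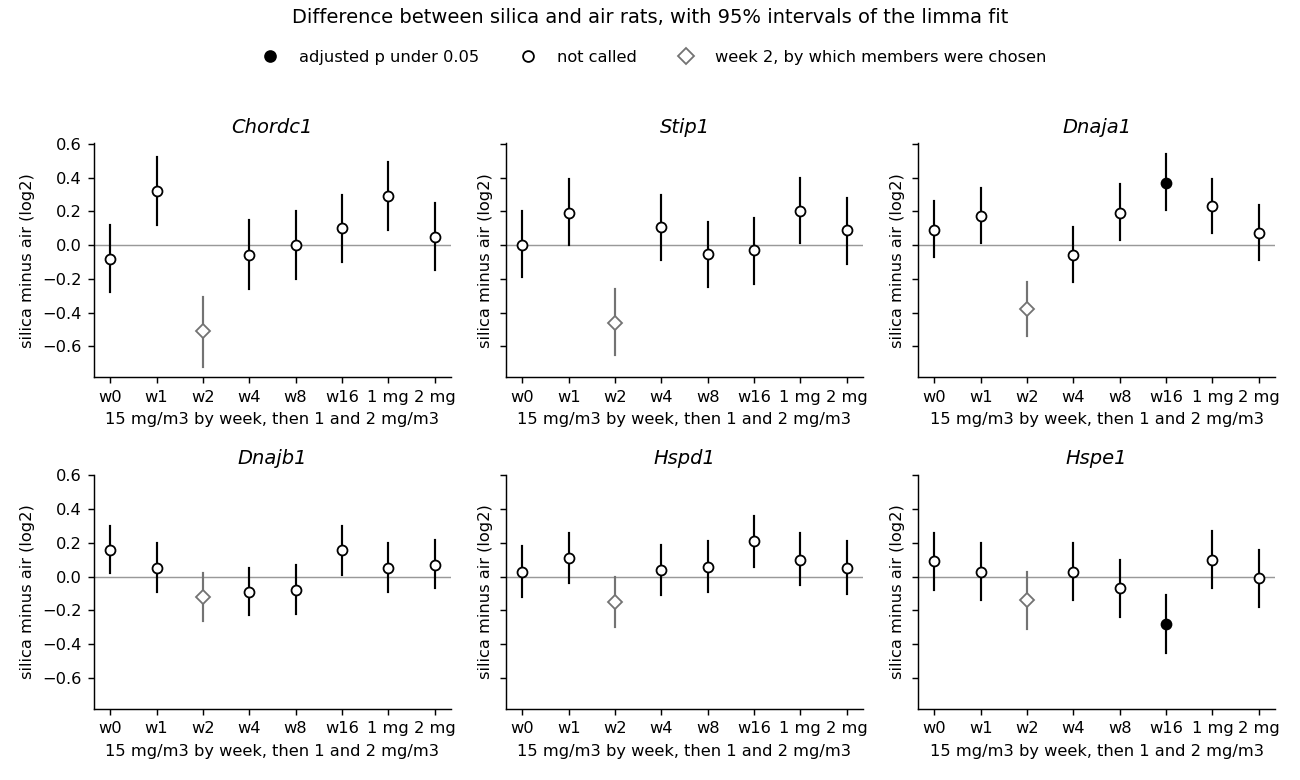
Silica minus air in log2 units (vertical axes) with 95% intervals for 6 chaperone transcripts in each comparison (horizontal axes: 15 mg/m3 at weeks 0 to 16, then 1 and 2 mg/m3 at week 0). Filled points mark the 2 called differences, Dnaja1 (0.37) and Hspe1 (-0.28) at week 16, and grey diamonds mark week 2, by which the members were chosen.

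The lower concentrations allow the same question at week 0. No member was called at 1 or at 2 mg/m3, where 0% of genes were called in either. By unadjusted p under 0.05, 3 members passed at 1 mg/m3 and 0 at 2 mg/m3, against 2.54% and 4.71% of all genes. At 1 mg/m3 Chordc1 lay between 8.57 and 9.23 in silica rats, with a median of 9.04, and at 8.57, 8.73, 8.75 and 8.79 in air rats, a difference of 0.29 ± 0.10 (adjusted p = 1). Dnaja1 lay between 9.51 and 10.23 in silica rats, with a median of 9.79, and at 9.71, 9.65, 9.54 and 9.49 in air rats, a difference of 0.23 ± 0.08 (adjusted p = 1). The silica rats of 1 mg/m3 spread more widely than their air rats for both genes, with SDs of 0.24 and 0.09 for Chordc1 and 0.22 and 0.10 for Dnaja1, and the groups overlapped. At 2 mg/m3 differences ran from -0.01 for Hspe1 to 0.09 for Stip1 among the 6 detected members, all with adjusted p of 1. The 2 members of lowest p there were Dnajb1 (0.07 ± 0.07) and Stip1 (0.09 ± 0.10).

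Differences between concentrations were tested as well, and no member was called, as no gene was (0%). By unadjusted p under 0.05 the count was 1 member for 15 against 1 mg/m3 (4.27% of genes), 0 for 15 against 2 mg/m3 (2.92%) and 0 for 2 against 1 mg/m3 (1.75%). For Chordc1 the difference at 15 mg/m3 minus that at 1 mg/m3 was -0.37 ± 0.14 (unadjusted p = 0.0111, adjusted p = 1) and that at 2 minus that at 1 mg/m3 was -0.24 ± 0.14 (adjusted p = 1). The values of the members thus followed no order of dose that passed a test.

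**Figure D4:**
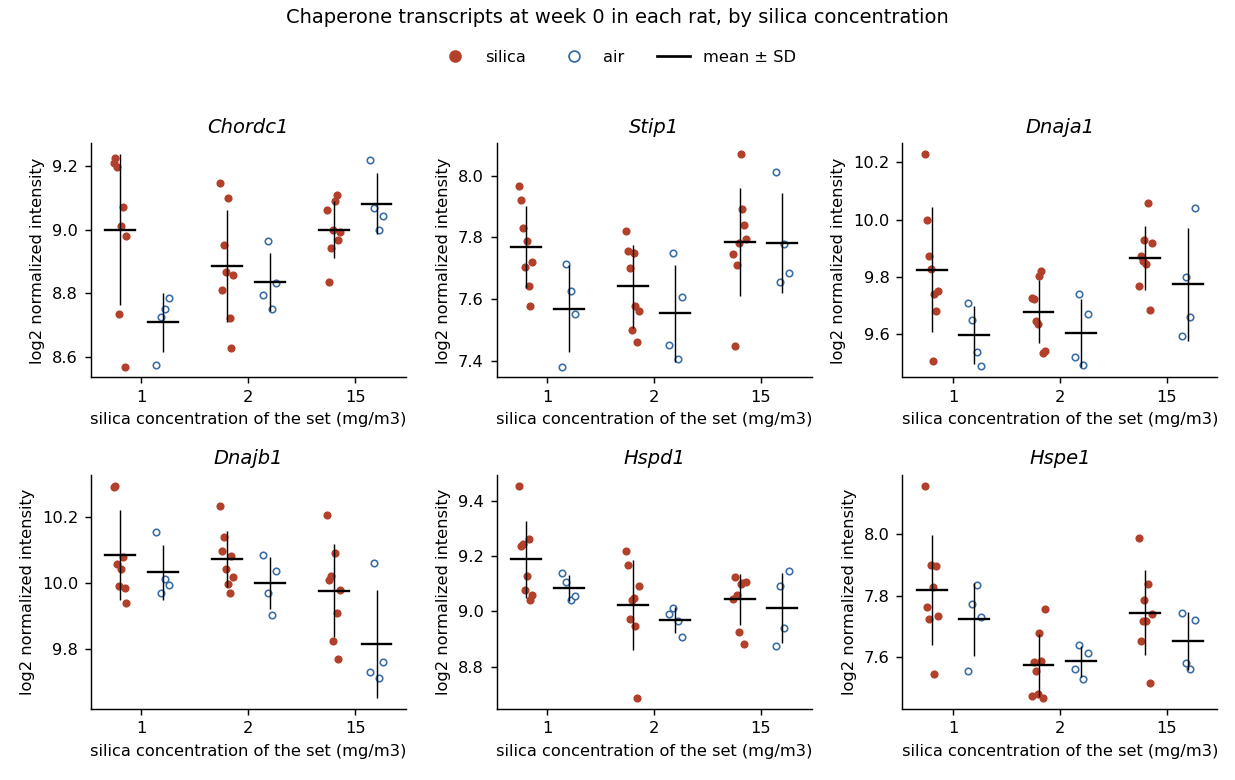
Normalized log2 intensity (vertical axes) of 6 chaperone transcripts in each rat at week 0 by the silica concentration of the set in mg/m3 (horizontal axes), with silica rats as filled points left of their air rats as open points and black bars for the mean and SD. Groups overlap in all panels, and the widest gap between means is that of Chordc1 at 1 mg/m3 (0.29).

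Levels over time within a treatment were compared apart from week 2. Across weeks 0, 1, 4, 8 and 16, moderated F tests in limma called 5 of 7 members in silica rats, where 43.6% of genes were called, and 5 of 7 in air rats, where 29.6% were. With arrays scaled to a common median the counts were 2 in silica rats and 0 in air rats, and with only the arrays compared the count in air rats was 3. In silica rats Hspe1 varied most, at 7.75 ± 0.14, 7.92 ± 0.14, 7.67 ± 0.11, 7.54 ± 0.12 and 7.39 ± 0.19 in that order of weeks (SD, n = 8 each, limma adjusted p = 1.72e-08). Its air rats stood at 7.65 ± 0.09, 7.88 ± 0.12, 7.64 ± 0.27, 7.61 ± 0.05 and 7.68 ± 0.09 (SD, n = 4 each, limma adjusted p = 0.131). The time course of Hspe1 therefore ended at its lowest mean in silica rats and near its starting mean in air rats.

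Hspd1 was lower at the end of the course in both. Silica rats had 9.04 ± 0.09, 9.14 ± 0.11, 8.92 ± 0.10, 8.88 ± 0.19 and 8.82 ± 0.14 at those weeks (SD, n = 8 each, limma adjusted p = 4.83e-05), and air rats had 9.01 ± 0.13, 9.03 ± 0.08, 8.88 ± 0.15, 8.82 ± 0.04 and 8.61 ± 0.17 (SD, n = 4 each, limma adjusted p = 4.04e-04). Dnaja1 ended lowest in air rats, with means of 9.77, 9.84, 9.84, 9.68 and 9.51 (limma adjusted p = 0.0170), while its silica means were 9.87, 10.01, 9.78, 9.87 and 9.88 (limma adjusted p = 0.0469). Stip1 and Dnajb1 were called over time in silica rats (limma adjusted p = 0.00229 and 0.0119) and in air rats (0.00788 and 0.0206), and Chordc1 was called in air rats (0.00259) but not in silica rats (0.337). Collection dates are not in the labels, so week of kill and day of processing cannot be told apart.

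Whether the silica difference itself changed between those 5 weeks was tested as an interaction, and no member passed, where 0.0244% of genes did. Unadjusted p was under 0.05 for Dnaja1 (0.0096), Hspe1 (0.0247), Dnajb1 (0.0290) and Chordc1 (0.0436), with limma adjusted p of 0.382, 0.482, 0.501 and 0.559. The share of all genes under that unadjusted limit was not counted for this test, so nothing is read from these values. Calls of Dnaja1 and Hspe1 at week 16 are thus not shown to differ from the same comparisons at weeks 0, 1, 4 and 8.

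Other genes of the chaperone network were counted from lists. Among 10 further HSP70 and HSP90 genes, mostly cytosolic, 6 were tested. Over the 8 comparisons, 13 of their 48 tests had an unadjusted p under 0.05 in limma, where 2.54% to 18.3% of all genes did in a comparison. At week 16, when 4.78% of all genes were called, 2 of the 6 were. Hspa13, a microsomal member of the HSP70 family, rose at week 16 by 0.42 ± 0.11 (limma adjusted p = 0.0116). So did the row labelled Hspcal3_predicted, for which the reference gave no current gene name, by 0.35 ± 0.10 (limma adjusted p = 0.0293), and it was the 1 gene beside the 3 members called at week 2, at -0.56 ± 0.10 there. Its week 1 difference was 0.38 ± 0.10 (limma adjusted p = 0.0664). Hsp90aa1, the inducible cytosolic HSP90, was called in no comparison, with -0.38 ± 0.13 at week 2, 0.37 ± 0.13 at week 1, 0.39 ± 0.13 at week 8 and 0.33 ± 0.13 at week 16 (limma adjusted p from 0.127 to 0.300).

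Of 34 further co-chaperones 29 were tested, and 2 were called, both at week 16, when 4.78% of all genes were. Fkbp5, an HSP90-bound immunophilin that glucocorticoids induce, rose by 0.33 ± 0.10 (limma adjusted p = 0.0452), and Stub1, a ubiquitin ligase that docks to HSP70 and HSP90, fell by 0.37 ± 0.11 (limma adjusted p = 0.0315). Cacybp, which links Siah1 to Skp1 in a ubiquitin ligase complex, stood at -0.39 ± 0.10 at week 2 (limma adjusted p = 0.147). The median of these 29 genes was -0.03 at week 2 and 0.01 at week 16, against 0.002 and 0.001 over all genes. Over the 8 comparisons, 24 of their 232 tests had an unadjusted p under 0.05 in limma, where 2.54% to 18.3% of all genes did in a comparison. No gene was called in any comparison among 7 tested subunits of the cytosolic chaperonin TRiC, 8 tested mitochondrial chaperones, 12 tested chaperones of the endoplasmic reticulum or 5 tested heat shock factors and small heat shock proteins. By unadjusted p under 0.05 in limma, over the 8 comparisons, 7 of 56 tests passed for TRiC, 7 of 64 for the mitochondrial list, 4 of 96 for the endoplasmic reticulum and 2 of 40 for the last list, where 2.54% to 18.3% of all genes passed in a comparison. The TRiC subunits lay below 0 in 6 of 7 at week 2, with a median of -0.11, and above 0 in 7 of 7 at 1 and at 2 mg/m3, with medians of 0.09 and 0.05. In the other comparisons they lay above 0 in 2 to 4 of 7. The mitochondrial list lay below 0 in 7 of 8 at weeks 4, 8 and 16 and at 2 mg/m3, with medians of -0.03, -0.01, -0.10 and -0.06. In the other comparisons that list lay above 0 in 4 or 5 of 8, with a median of 0.08 at week 2. Trap1, the mitochondrial HSP90, stood at -0.14 ± 0.07 at week 16 (limma adjusted p = 0.263). The share of all genes on either side of 0 was not counted.

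Within groups, the members moved together to different degrees from rat to rat. As a description over the 96 arrays after subtracting group means, Chordc1 and Stip1 correlated most closely (r = 0.63), followed by Chordc1 and Hspd1, and Dnajb1 and Hspd1 (r = 0.46 each), and Dnaja1 and Hspd1 (r = 0.45). Hspe1 and Hspd1 reached 0.41, and Stip1 and Dnajb1 0.10. Arrays of a column run share a position in the table, and the mean of the members correlated with the number of detected rows at r = 0.29. Among 6028 other genes detected on every array, those most like the mean of the members were LOC500436 (r = 0.69), Tmem263 and Cacybp (0.68 each), Skp1 (0.63), Vamp4, Atxn2, Lypla1 and Pcna (0.62 each) and Ubqln2 and Phax (0.61 each). The median r of those 6028 genes was 0.02. Over the 16 group means, genes much like the mean of the members included Cep15 (r = 0.87), LOC500191 (0.86), Mrpl41l1 and Cdc26 (0.85 each). Those means include both groups of week 2, by which the members were chosen. The median r of all genes over group means was not computed, so these values are a description. Among the 16 list means, the highest r with the members within groups were those of the co-chaperones (0.42), of NK and cytotoxic cell genes (0.38) and of the other HSP70 and HSP90 genes and TRiC (0.35 each), and the lowest was that of the 2 cold-inducible genes (-0.37).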

How the data were processed

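Each row of the first deposited table gives a probe's raw intensity on every array. Per the file headers it also gives the authors' detection p-value, the standard error over beads and the number of beads. The second deposited table holds log2 values normalized by the authors, used here as an alternative. BeadStudio, limma and lumi are named, with no version, in the submitters' processing notes, and further steps are not given in the sources used here.

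Intensities were corrected by normexp (offset 16) with background inferred from detection p-values, quantile normalized and taken to log2 in R 4.3.3 with limma 3.58.1. Detection p-values lie on a grid of 825 steps, and 626 of 21792 rows off it, those of Hspd1 and Hsp90ab1 among them, did not enter the estimate of background but stayed in the tests. Rows detected (p under 0.05) on at least 4 of 96 arrays were kept (12368), then the row of highest mean per gene, which left 12306 genes. Names came through Entrez ID for 16866 rows and through symbol for 144, and 4782 kept the file's name. In limma, a model with 1 mean for each of the 16 groups gave moderated t and F tests, with Benjamini-Hochberg adjustment. The number of arrays limits the precision. Nothing in the labels says that rats of a group were sampled on separate days, so p-values measure the spread between these rats. No 2 arrays were identical, and arrays correlated at 0.977 to 0.997 within groups.

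Members and lists were chosen with earlier results of these data known. All members are named. In comparisons other than week 2, every called member is named, or the 2 of lowest p. From each chaperone list, called genes are named, and at most 4 of lowest p in a comparison. One gene that the likeness rule names is not reported here. Lists of clock and immediate early genes and of blood cell types were computed beside them. The fit was tested on simulated data.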

Additional observations from a re-analysis of the deposited data

Results flagged for a closer look

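Checking 6 members in 16 groups for a rat far from the rest of its group found 2 cases in 96 checks, where chance flags about 1 in 20 groups. Dnaja1 in silica rat 4 of week 2 stood at 10.28, with the next silica rat at 10.04, and Dnajb1 in air rat 2 of week 0 stood at 10.06, with the next air rat at 9.76. In both cases the rat lay on the side of the other treatment's values.

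Opposite differences in separate comparisons were seen for 3 members, in each of which every silica rat lay above the air mean in one comparison and below it in another. Chordc1 stood at 0.32 at week 1 and at -0.51 at week 2, Dnaja1 at 0.37 at week 16 and at -0.38 at week 2, and Stip1 at 0.20 at 1 mg/m3 and at -0.46 at week 2 of the 15 mg/m3 set. In each case the lower comparison was week 2, by which these members were chosen, so that side was in part built in. The share of all genes with such opposite differences was not counted. These differences between comparisons were not tested, since week 2 chose the members.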

How the results depend on the processing

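At week 2 the median of the members, -0.15, was -0.06 with median scaling and -0.27 both without Hsp90ab1 and with detection at p under 0.01 on at least 8 arrays, which drops it, and it ranged from -0.20 to -0.13 with each rat left out. Over the 12 alternatives the week 2 values, by which the members were chosen, were -0.56 to -0.41 for Chordc1, -0.50 to -0.25 for Stip1 and -0.44 to -0.29 for Dnaja1. At week 16 the count of 2 called members was 1 with the stock background correction, without the detection filter, with only the arrays compared and within the first 4 column runs, 0 with median scaling, and 1 to 2 with each rat left out. Hspe1 lost its call without silica rats 2, 6 or 8 or any 1 of the 4 air rats (-0.31 to -0.24, adjusted p 0.0527 to 0.135), at -0.11 (adjusted p = 0.0952) with the stock correction, and at -0.28 without the filter (adjusted p = 0.0561) and with only the arrays compared (adjusted p = 0.185). Hspd1 was called at week 16 without silica rat 6 (0.25, adjusted p = 0.0491). Members called across weeks numbered 0 with median scaling and 3 with only the arrays compared in air rats, and 2 with median scaling in silica rats, against 5 in each. The cause was not tested. With the replicate number as a block, Chordc1 at week 1 was called (0.40, adjusted p = 0.0218), which made 1 member in place of 0, Hspd1 at week 16 was called (0.25, adjusted p = 0.0235) and Hspe1 at week 16 was not (-0.25, adjusted p = 0.0839). The labels do not say whether the numbers pair rats. Of 32 same-number pairs of arrays, 6 correlated above 0.1 (range -0.32 to 0.27), and 4 had their best match in their own number. Such correlations cannot show whether rats of the same number shared a step of handling. Genes called over the whole array at week 16 numbered 588, but 62 with only the arrays compared, 108 with median scaling, 296 within the first 4 column runs and 214 to 714 with each rat left out; at week 1 they numbered 48, but 0 within the first 4 column runs and 21 to 111 with each rat left out. Alternatives restricted to the first 4 column runs, those without Hsp90ab1 and those of the Hspe1 and Hspd1 pair were chosen after seeing the data. The 4 air rats per comparison and, for Stip1 and Hspe1, the dimmest of the 6 detected probes, limit the precision.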

Other observations

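Other blood transcripts were counted beside the chaperones. Among 9 tested clock genes, Per2, a repressor of the circadian loop, was the 1 gene called, at 0.68 ± 0.14 at week 16 (limma adjusted p = 7.99e-04). Among 12 tested immediate early genes, which respond within minutes to stimulation or handling, Dusp1 was the 1 gene called, at 0.45 ± 0.14 at week 16 (limma adjusted p = 0.0366). Of all genes 4.78% were called at week 16.

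No tested marker of monocytes (4 genes), T cells (6), B cells (3), NK and cytotoxic cells (5), erythroid cells (5) or platelets (4) was called by limma in any of the 8 comparisons of silica with air. By unadjusted p under 0.05, over those comparisons, 3 of 32 tests passed for monocytes, 1 of 48 for T cells, 3 of 24 for B cells, 2 of 40 for NK and cytotoxic cells, 2 of 40 for erythroid cells and 3 of 32 for platelets. Of all genes 2.54% to 18.3% passed that limit in a comparison. At week 2 the median differences of the markers were 0.20 for monocytes, -0.05 for T cells, 0.21 for B cells, 0.13 for NK and cytotoxic cells, -0.09 for erythroid cells and -0.07 for platelets. At week 16 they were -0.08 for monocytes, -0.03 for T cells, -0.33 for B cells, -0.09 for NK and cytotoxic cells, 0.02 for erythroid cells and -0.18 for platelets. The 3 B cell markers lay above 0 at week 2 and below 0 at week 16.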
